A study of Mus musculus with 9 samples.

Results

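The clade B serpins of mouse skin were taken as every gene of the deposited count table whose symbol begins with Serpinb and a number, pseudogenes left out. There were 28 such genes among 54456. They lay in 2 clusters, 12 genes on chromosome 1 and 16 on chromosome 13, and 21 of the 28 had enough counts to be tested (11 on chromosome 1 and 10 on chromosome 13), as had 26081 genes of the whole table. Of those 21, 18 reached a mean of at least 1 CPM in at least 1 group (10 and 8), where CPM are counts scaled to a common library size.

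The samples were skin of mice with lesions that the labels call AA-like, in 3 groups of 3 libraries. The first group was left untreated, the second received empty microneedles (MN), and the third received MN loaded with IL-2 and CCL22. IL-2 makes T cells grow and keeps regulatory T cells alive, and CCL22 draws in cells that bear the chemokine receptor CCR4. Strain, age, sex, the way the lesions were induced, the dose and the time of sampling were not given in the sources used here.

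Serpins are folded around an exposed loop that a protease cuts as if it were a substrate, which traps and inactivates the enzyme. Clade B members lack a classical signal peptide and act mostly inside cells, where they hold serine proteases and, for some members, lysosomal cysteine cathepsins in check. Many are made in squamous epithelium such as the epidermis, and others in leukocytes, where they guard the cell against its own granule proteases.

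Close copies within both clusters carry much of the same sequence, and these sequences are shown because the counts of such genes turned out to differ in how far they moved. The 4 runs below are the first 45 bases of the part that codes for the reactive loop, the loop that meets the protease. They were taken from transcripts of GENCODE M21 (GRCm38) and begin at the conserved hinge. Only the start of the loop is shown, so the runs do not give how far the whole loops differ. Capitals mark the bases that differ within each pair, 2 between Serpinb3a and Serpinb3b and 14 between Serpinb6a and Serpinb6c.
Serpinb3a: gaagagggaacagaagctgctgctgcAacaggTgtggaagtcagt
Serpinb3b: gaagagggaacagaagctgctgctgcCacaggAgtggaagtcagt
Serpinb6a: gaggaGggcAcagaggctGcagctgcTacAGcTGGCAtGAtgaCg
Serpinb6c: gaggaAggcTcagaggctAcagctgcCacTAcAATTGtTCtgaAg
Over the whole open reading frame, Serpinb3a and Serpinb3b were identical at 92.9% of aligned bases and Serpinb6a and Serpinb6c at 86.1%. A run of 50 bases found word for word in a transcript of another gene made up 15.2% of such runs in Serpinb3a, 14.7% in Serpinb3b, 10.4% in Serpinb6c and 2.68% in Serpinb6a. For Serpinb5, Serpinb12, Serpinb13, Serpinb11, Serpinb7 and Serpinb2 this share was 0. It was 2.88% in Serpinb10, 0.380% in Serpinb9 and 0.499% in Serpinb9b. The counts of members with a share above 0 are therefore less certain gene by gene than those of members where it was 0. Sums over the Serpinb1, Serpinb3, Serpinb6 and Serpinb9 copies are given with the single genes.

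The Serpinb3 copies also share their upstream sequence. These 3 runs of 120 bases end with a tataaat box that lies 58, 34 and 24 bases before the annotated start of Serpinb3a, Serpinb3b and Serpinb3c (RefSeq, GRCm38.p6, minus strand, at chr1:107052362-107052481, chr1:107161149-107161268 and chr1:107278396-107278515). Capitals mark the 9 positions at which the 3 differ.
Serpinb3a: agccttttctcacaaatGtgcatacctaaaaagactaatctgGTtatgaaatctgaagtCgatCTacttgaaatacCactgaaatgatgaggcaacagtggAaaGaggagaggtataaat
Serpinb3b: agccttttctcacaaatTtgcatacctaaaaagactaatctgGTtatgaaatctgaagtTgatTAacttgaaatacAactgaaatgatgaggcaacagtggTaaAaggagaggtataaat
Serpinb3c: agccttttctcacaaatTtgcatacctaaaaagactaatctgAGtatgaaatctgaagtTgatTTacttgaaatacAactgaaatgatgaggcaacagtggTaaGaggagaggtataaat
The Serpinb3a and Serpinb3b runs differ from each other at most of these 9 positions. The 2 genes fell by different amounts, as given further down, and the part of these bases in that was not tested.

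AP-1, the Fos and Jun factor active in epidermal differentiation, binds sites of the form TGANTCA. That motif, which reads the same way on both strands, was searched in the 300 bases from 250 before to 50 after each annotated start. Windows were held for 26 of the 28 members (not for Serpinb13 and Serpinb1a). The motif occurred in 8 of 13 windows of chromosome 1 members and in 0 of 19 of chromosome 13 members, against 7.81% of all 32851 windows in the table. By gene these were 7 of 11 and 0 of 15 members. Serpinb3a, Serpinb3b and Serpinb6c, whose RNA also fell, held no such motif in their windows. The part of the motif in the falls was not tested. The sites are shown with 11 bases on either side and the motif in capitals, all on the plus strand of chromosome 1 in GRCm38.p6.
Serpinb5, chr1:106861024-106861052: caagttgggccTGAATCAtgtcttccaat
Serpinb12, chr1:106934393-106934421: aaaaaacaatcTGATTCAcgatcattatt
Serpinb11, chr1:107362122-107362150: taagtatagtgTGATTCAgaaagcacagt
Serpinb11, chr1:107362227-107362255: aggtgaagagcTGAATCAtaacaacacag
Serpinb7, chr1:107422633-107422661: cagggagtgtcTGAGTCAgaggctttata
Serpinb2, chr1:107511318-107511346: gagtaaaatgtTGAATCAtacaaagaata
Serpinb10, chr1:107528938-107528966: gcttgtgaaagTGAATCAagggtggggct
Serpinb8, chr1:107589972-107590000: tgtgggaagtgTGAGTCAcagagtgttca
Serpinb8, chr1:107590008-107590036: gcattatgttcTGAGTCAcccgacaggcg
Most of these hold A or T in the middle, whereas the forms usually given for AP-1, TGAGTCA or TGACTCA, were found only at Serpinb7 and Serpinb8, and in 5.20% of all windows. The STAT motif TTCNNNGAA, also the same on both strands, was found in 1 of 11 chromosome 1 members (Serpinb2) and 2 of 15 chromosome 13 members (Serpinb9c and Serpinb6a). By window these were 2 of 13 and 2 of 19, against 8.30% of all windows. These are matches of letters and not measured binding.

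The deposited table held 85962714 to 96740589 counts per library, and 1 CPM stood for 82.3 to 97.7 counts. Mitochondrial genes took 4.56% to 4.72% of counts in the untreated, 3.31% to 3.42% in the empty and 3.78% to 3.90% in the loaded libraries, and the part of this difference in the results was not tested. Whether the 3 libraries of a group stem from 3 mice is not in the labels, so the p-values reflect only how far these libraries spread, and that spread may be technical.

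Clade B serpin RNA was highest in untreated lesions and lowest with loaded MN. The 28 genes together took 0.233% to 0.254% of all counts in the untreated libraries, 0.170% to 0.175% with empty MN and 0.142% to 0.151% with loaded MN. The 3 ranges did not overlap. In a bulk sample, fewer cells of a type and less RNA per cell cannot be told apart, and this holds for every value that follows. Serpinb5 alone made up 40.3% to 41.0% of the members' counts in untreated, 36.4% to 37.5% in empty and 41.9% to 42.8% in loaded libraries.

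With loaded MN against untreated lesions, 20 of the 21 tested members fell, 0 rose and Serpinb13 passed no threshold (edgeR quasi-likelihood test, adjusted p under 0.05 over all tested genes). Of all tested genes, 23.3% were called lower in this comparison and 19.0% higher. The chromosome 1 members fell in 10 of 11 cases and the chromosome 13 members in 10 of 10. The median log2 fold change was -0.85 on chromosome 1 and -0.81 on chromosome 13, against -0.01 over all tested genes. A fall of at least 2-fold was seen in 8 members, 5 on chromosome 1 and 3 on chromosome 13, while 1.60% of all tested genes fell that far. In 19 members every loaded library lay below every untreated library, which held for 28.1% of all tested genes. Serpinb3d passed the filter only through its untreated libraries, and without it 19 of 20 members fell, 7 of them at least 2-fold, and 18 had no overlap.

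With empty MN against untreated lesions, 17 of the 21 members fell, 9 on chromosome 1 and 8 on chromosome 13, and Serpinb13 rose. Of all tested genes, 28.1% were called lower and 20.2% higher. Serpinb8, Serpinb1b and Serpinb6e passed no threshold. The medians were -0.71 on chromosome 1 and -0.60 on chromosome 13, against -0.02 over all tested genes, and 4 members fell at least 2-fold against 1.67% of all tested genes. The 17 members that fell had no overlap between the groups, which held in that direction for 31.1% of all tested genes. Without Serpinb3d, 16 of 20 fell, 3 of them at least 2-fold.

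With loaded against empty MN, the comparison in which the groups differ by the load, 11 of the 21 members were lower, 6 on chromosome 1 and 5 on chromosome 13, and 0 were higher. Of all tested genes, 18.5% were called lower and 22.9% higher. The medians were -0.17 on chromosome 1 and -0.26 on chromosome 13, against 0.02 over all tested genes. Only Serpinb12 and Serpinb6c among the tested members were lower by at least 2-fold, as were 1.17% of all tested genes. The 2 comparisons with untreated lesions share the untreated libraries, and the 2 comparisons of empty MN share the empty libraries, so these counts are not independent of each other. In 16 of the 21 members the group means ran in the order loaded, empty, untreated from low to high, an order found in 13.5% of all tested genes.

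**Figure D1:**
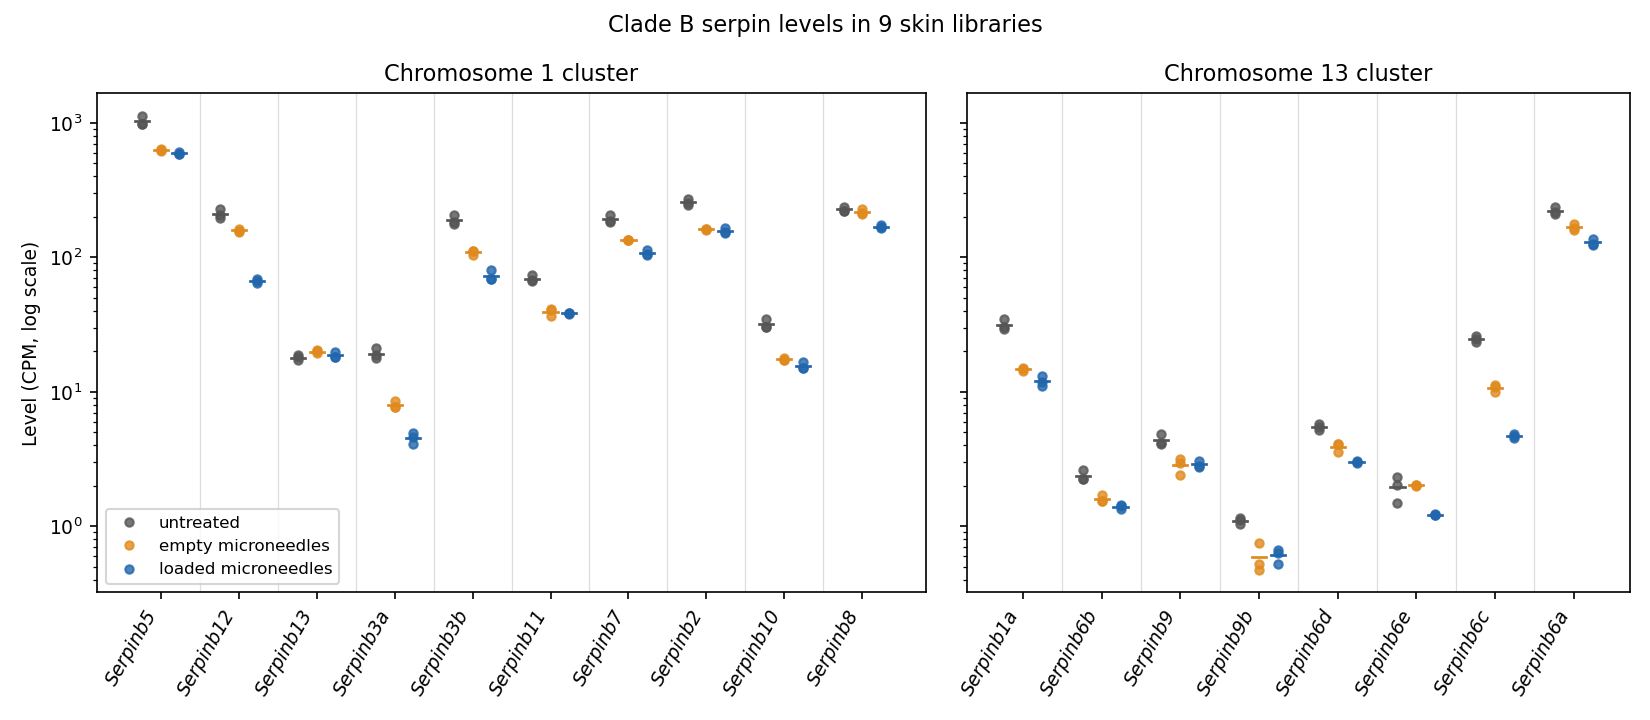
Level of each member with a mean of at least 1 CPM in a group, on a log axis, in chromosomal order within the chromosome 1 and chromosome 13 clusters. Each point is 1 library and each short line the mean of 3 (grey untreated, orange empty MN, blue loaded MN). Most members step down from grey to blue, Serpinb13 stays between 17.2 and 20.3 CPM, and Serpinb12, Serpinb3a and Serpinb6c show the widest steps between the 2 devices.

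The chromosome 1 cluster spans 749 kb from 106788903 to 107538214 in mm39, with 8 members on the plus and 4 on the minus strand. Its first gene, Serpinb5 (106788903 to 106811078), codes for maspin, an epithelial serpin that does not inhibit proteases in the usual way. Serpinb5 stood at 1121, 988 and 985 CPM in the untreated libraries, at 644, 633 and 616 with empty MN and at 588, 584 and 609 with loaded MN. All device libraries lay well below all untreated ones, and the loaded libraries lay just below the empty ones. The fall was 1.74-fold with loaded MN (log2 fold change -0.80, SE 0.041, edgeR adjusted p = 5.38e-14) and 1.63-fold with empty MN (-0.71, SE 0.041, 1.92e-13). Between the devices the log2 fold change was -0.09 (SE 0.041, edgeR adjusted p = 0.0940), which did not pass the threshold. It passed without untreated replicate 1 (-0.09, adjusted p = 0.0154) or empty replicate 3 (-0.13, 0.0145), with a minimum count of 50 (-0.11, 0.0414) and with only the 2 groups in the fit (-0.09, 0.0236).

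Serpinb12 (106862179 to 106884810), an inhibitor of trypsin-like serine proteases made in stratified epithelium, behaved otherwise. Its level was 229, 205 and 197 CPM in the untreated libraries, 164, 158 and 155 with empty MN and 66.5, 64.9 and 68.9 with loaded MN. The 3 groups did not overlap, and the loaded libraries stood far below both others. Serpinb12 fell 1.33-fold with empty MN (log2 fold change -0.41, SE 0.043, edgeR adjusted p = 9.05e-08) and 3.15-fold with loaded MN (-1.66, SE 0.045, 1.83e-16). With loaded MN it was 2.38-fold lower than with empty MN (-1.25, SE 0.045, edgeR adjusted p = 8.16e-15).

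Serpinb13 (106908714 to 106928925), an inhibitor of cathepsins K and L in differentiated keratinocytes, was the only tested member that was not called lower with loaded MN. It stood at 18.7, 17.2 and 18.0 CPM in the untreated libraries, 19.97, 20.3 and 19.5 with empty MN and 19.9, 18.2 and 18.2 with loaded MN. The loaded values overlapped both other groups, and the empty ones lay above the untreated. Serpinb13 rose 1.11-fold with empty MN (log2 fold change 0.15, SE 0.048, edgeR adjusted p = 0.0105), a call lost without untreated replicate 2 (0.12, adjusted p = 0.0851). Against untreated lesions the loaded libraries differed by 0.07 (SE 0.048, edgeR adjusted p = 0.306), and this became a rise (0.20, adjusted p = 8.85e-04) where counts were scaled by library size alone, which moved the median of all genes by 0.13. Relative to that median the value of 0.20 is close to the one under the main scaling.

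Serpinb7 (107327385 to 107380419), or megsin, whose loss in people causes Nagashima-type palmoplantar keratosis, stood at 206, 183 and 185 CPM in the untreated libraries, 135, 134 and 135 with empty MN and 105, 106 and 114 with loaded MN. The 3 groups were apart. It fell 1.42-fold with empty MN and 1.77-fold with loaded MN (log2 fold changes -0.51 and -0.82, SE 0.040 and 0.041), and the 1.24-fold difference between the devices passed the test (edgeR adjusted p = 8.66e-07). Serpinb11 (107288928 to 107308205), another epithelial member, stood at 73.6, 67.4 and 66.5 CPM in the untreated libraries, 41.2, 40.5 and 36.9 with empty MN and 38.2, 38.6 and 38.6 with loaded MN. It fell 1.75-fold and 1.80-fold with empty and loaded MN. Here the device libraries overlapped each other, with a log2 fold change of -0.04 between them (SE 0.042, edgeR adjusted p = 0.501). Without empty replicate 3, which had the lowest empty value, that difference was -0.11 (adjusted p = 0.0278).

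The Serpinb3 genes are the mouse counterparts of the human squamous cell carcinoma antigens, inhibitors of cysteine cathepsins and of chymotrypsin-like serine proteases that respond to type 2 cytokines. Serpinb3b (107081670 to 107206091) stood at 205, 178 and 184 CPM in the untreated libraries, 111, 104 and 112 with empty MN and 69.5, 68.9 and 80.8 with loaded MN. Serpinb3a (106973317 to 106980033) stood at 21, 18.7 and 17.9 CPM, at 8.49, 7.74 and 7.66 CPM and at 4.59, 4.10 and 4.97 CPM in the same order. For both genes the 3 groups were apart, with loaded libraries lowest. Serpinb3b fell 1.74-fold with empty MN and 2.59-fold with loaded MN (log2 fold changes -0.80, SE 0.072, and -1.37, SE 0.074; edgeR adjusted p = 1.22e-05 and 4.10e-07). Serpinb3a fell 2.41-fold with empty MN and 4.21-fold with loaded MN (-1.27, SE 0.067, and -2.07, SE 0.072; edgeR adjusted p = 1.76e-14 and 1.50e-17). Between the devices Serpinb3a was 1.75-fold lower with loaded MN and Serpinb3b 1.49-fold lower (edgeR adjusted p = 1.62e-09 and 1.74e-04).

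Per 100 counts of Serpinb3b, the untreated libraries held 10.3, 10.5 and 9.75 counts of Serpinb3a, the empty ones 7.68, 7.45 and 6.86 and the loaded ones 6.62, 5.95 and 6.16. Such a ratio does not depend on how libraries are scaled, and its 3 groups did not overlap. Serpinb3d, a copy with few reads, was counted 15, 17 and 18 times in the untreated libraries, 9, 3 and 5 with empty MN and 9, 7 and 6 with loaded MN. It fell with both devices (log2 fold changes -1.70 and -1.28, edgeR adjusted p = 0.00209 with empty and 0.0158 with loaded MN), and the call with loaded MN was lost without loaded replicate 2 (-1.25, 0.0530) or 3 (-1.14, 0.0715). Since no device library reached the filter minimum of 10 counts, Serpinb3d was tested only because its untreated libraries were high, and its fall supports nothing further. Serpinb3c, whose span lies to 99.9% within that of Serpinb3b on the same strand, had at most 2 counts in any library and was not tested, while Serpinb3b had 6213 to 16841. With introns counted, reads in the shared span could belong to either gene, so these few counts do not show that Serpinb3c was silent. With the Serpinb3 copies summed, the log2 fold change was -0.84 with empty MN, -1.42 with loaded MN and -0.59 between the devices, each called lower.

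Serpinb2 (107439153 to 107463208), or PAI-2, an inhibitor of urokinase that is a component of the cornified envelope and is also induced in activated macrophages, stood at 271, 254 and 245 CPM in the untreated libraries. With empty MN it stood at 160.1, 162 and 162 CPM and with loaded MN at 152, 154 and 164. The device groups overlapped each other and lay below the untreated one. Serpinb2 fell 1.59-fold with empty and 1.64-fold with loaded MN (log2 fold changes -0.67 and -0.71, SE 0.037 each, edgeR adjusted p = 9.33e-15 and 6.06e-15), with -0.04 between the devices (edgeR adjusted p = 0.410). Serpinb10 (107456757 to 107477001), or bomapin, known from blood-forming cells, stood at 34.7, 30.6 and 30.2 CPM, then 17.3, 17.2 and 18.0 with empty MN and 14.98, 14.9 and 16.7 with loaded MN. It fell 1.82-fold with empty and 2.04-fold with loaded MN, and its difference between the devices (-0.17, edgeR adjusted p = 0.0156) was lost without loaded replicate 1 (-0.14, 0.0860) or 2 (-0.14, 0.0916). Serpinb2 and Serpinb10 share 6452 bases of span on the same strand, 31.9% of the Serpinb10 span. With introns counted, reads there could belong to either gene.

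Serpinb8 (107517736 to 107538214), an inhibitor of furin whose loss in people causes a peeling skin disorder, gave another pattern. It stood at 238, 222 and 222 CPM in the untreated libraries, 228, 209 and 214 with empty MN and 166, 167 and 175 with loaded MN. The empty libraries overlapped the untreated ones, and the loaded libraries lay below both. The log2 fold change with empty MN was -0.07 (SE 0.037, edgeR adjusted p = 0.139), a difference that became a call without empty replicate 1 (-0.11, adjusted p = 0.0254). Serpinb8 fell 1.34-fold with loaded MN against untreated lesions (-0.43, SE 0.037, edgeR adjusted p = 2.74e-10) and was 1.28-fold lower than with empty MN (-0.36, SE 0.037, 4.46e-09).

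The members of the chromosome 1 cluster did not all change by the same amount, and ratios of counts within each library give this without any scaling. Per 100 counts of Serpinb5, the untreated libraries held 20.4, 20.8 and 20.02 counts of Serpinb12, the empty ones 25.4, 25.0 and 25.1 and the loaded ones 11.3, 11.1 and 11.3. The ratio was highest with empty and lowest with loaded MN, and the values within a group were close together. Per 100 counts of Serpinb5 there were 21.2, 22.5 and 22.5 counts of Serpinb8 in untreated, 35.4, 33.0 and 34.7 in empty and 28.2, 28.7 and 28.7 in loaded libraries. For Serpinb13 these numbers were 1.67, 1.74 and 1.83 in untreated, 3.10, 3.21 and 3.16 in empty and 3.38, 3.12 and 2.99 in loaded libraries.

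**Figure D2:**
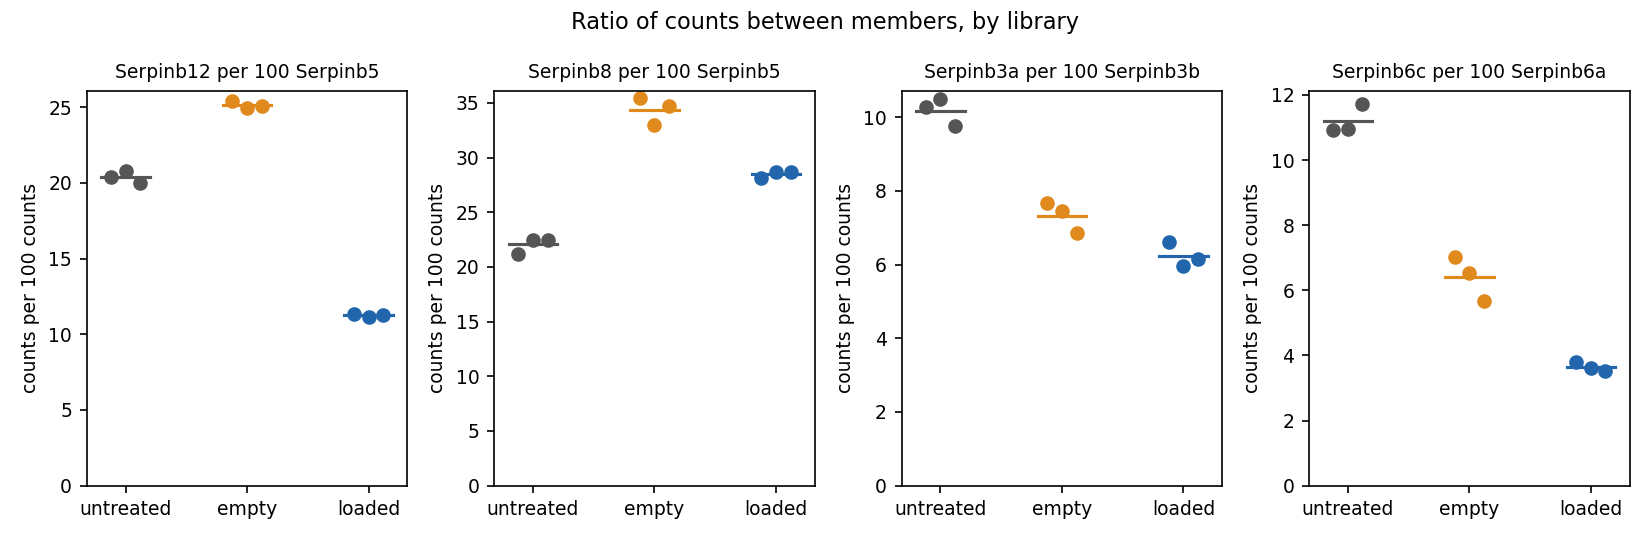
Counts of a member per 100 counts of another member in the same library, for 4 pairs, with 1 point per library and a line at the mean of 3. Serpinb12 against Serpinb5 was highest with empty MN and lowest with loaded MN, at 11.1 to 11.3, and Serpinb6c against Serpinb6a stepped down from 10.9 to 11.7 in untreated libraries to 3.53 to 3.81 with loaded MN.

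The chromosome 13 cluster spans 1161 kb from 33026075 to 34186777 in mm39, with 10 members on the plus and 6 on the minus strand. Its first gene, Serpinb1a (33026075 to 33035168), codes for the leukocyte elastase inhibitor, which blocks the neutrophil proteases elastase, cathepsin G and proteinase 3. Serpinb1a stood at 34.7, 29.4 and 30.5 CPM in the untreated libraries, 14.4, 14.8 and 15.1 with empty MN and 11.8, 11.1 and 13.1 with loaded MN. Both device groups lay below the lowest untreated library by a wide margin. Serpinb1a fell 2.13-fold with empty MN (log2 fold change -1.09, SE 0.060, edgeR adjusted p = 2.23e-12) and 2.62-fold with loaded MN (-1.39, SE 0.062, 1.57e-13). Between the devices it was 1.23-fold lower with loaded MN (edgeR adjusted p = 6.18e-04). Serpinb1b and Serpinb1c, its copies, had 23 to 57 and 15 to 46 counts per library.

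The calls for those copies rested on few counts. Serpinb1c was counted 46, 42 and 35 times in untreated libraries, 15, 38 and 25 with empty MN and 15, 25 and 24 with loaded MN. It fell with loaded MN (log2 fold change -1.05, SE 0.29, edgeR adjusted p = 0.00415) and with empty MN (-0.83, SE 0.28, 0.0157), the second call being lost without untreated replicate 1 (-0.73, 0.0700) or empty replicate 1 (-0.58, 0.102). Serpinb1b was counted 57, 51 and 28 times in untreated libraries, 28, 50 and 25 with empty MN and 23, 31 and 34 with loaded MN, so that its groups overlapped. Its call with loaded MN (-0.74, SE 0.29, edgeR adjusted p = 0.040) was lost without untreated replicate 1 (-0.52, 0.217) or 2 (-0.66, 0.128) or any of loaded replicates 1 (-0.61, 0.154), 2 (-0.79, 0.0749) and 3 (-0.84, 0.0552). With empty MN, where Serpinb1b was not called (-0.58, adjusted p = 0.0940), it was called lower without untreated replicate 3 (-0.85, 0.0121) or empty replicate 2 (-0.94, 0.0139). With the Serpinb1 copies summed, the log2 fold change was -1.08 with empty MN, -1.37 with loaded MN and -0.29 between the devices, each called lower.

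Serpinb6a (34101901 to 34186777), an inhibitor of cathepsin G and trypsin-like proteases made in many tissues, stood at 236, 216 and 211 CPM in the untreated libraries, 160.3, 165 and 176 with empty MN and 124, 126 and 137 with loaded MN. The 3 groups did not overlap. It fell 1.32-fold with empty MN (log2 fold change -0.40, SE 0.048, edgeR adjusted p = 1.63e-06) and 1.71-fold with loaded MN (-0.78, SE 0.048, 7.69e-10). Its span overlaps Nqo2 on the other strand over 23757 bases, 28.0% of the span. The strand setting of the counting was not given in the sources used here, so reads of the 2 genes may not be separable, although Nqo2 had only 1123 to 1265 counts against 11113 to 19451 for Serpinb6a.

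Serpinb6c (34063799 to 34089691), its neighbour, showed the largest fall among the tested members with loaded MN. It stood at 25.8, 23.6 and 24.7 CPM in the untreated libraries, 11.3, 10.8 and 10.01 with empty MN and 4.73, 4.55 and 4.85 with loaded MN. The 3 groups were far apart, with little spread within each. Serpinb6c fell 2.31-fold with empty MN (log2 fold change -1.21, SE 0.053, edgeR adjusted p = 1.40e-16) and 5.25-fold with loaded MN (-2.39, SE 0.059, 1.12e-21), and was 2.27-fold lower with loaded than with empty MN (-1.18, SE 0.062, 5.74e-15). Per 100 counts of Serpinb6a there were 10.9, 10.95 and 11.7 counts of Serpinb6c in untreated, 7.04, 6.54 and 5.67 in empty and 3.81, 3.62 and 3.53 in loaded libraries. Serpinb6a made up a larger share of the Serpinb6 counts with either device, 86.0% to 87.0% in untreated, 89.7% to 90.9% in empty and 92.2% to 92.9% in loaded libraries.

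Serpinb6d and Serpinb6e, other copies of this family, were low. Serpinb6d stood at 5.81, 5.17 and 5.45 CPM in the untreated libraries, 3.56, 4.09 and 4.09 with empty MN and 3.07, 2.96 and 3.004 with loaded MN, with no overlap between the groups and a 1.82-fold fall with loaded MN (edgeR adjusted p = 2.11e-09). Serpinb6e stood at 1.48, 2.34 and 2.02 CPM, then 2.01, 2.04 and 2.02 with empty MN and 1.24, 1.22 and 1.21 with loaded MN. Its empty libraries lay inside the untreated range, with a log2 fold change of 0.05 (SE 0.13, edgeR adjusted p = 0.777), while the loaded libraries lay below both. Serpinb6e was 1.65-fold lower with loaded than with empty MN (edgeR adjusted p = 7.96e-05). With the Serpinb6 copies summed, the log2 fold change was -0.46 with empty MN, -0.87 with loaded MN and -0.41 between the devices, each called lower.

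The remaining chromosome 13 members include inhibitors of granzymes, the killing proteases of cytotoxic lymphocytes. Serpinb9, which blocks granzyme B, stood at 4.89, 4.14 and 4.06 CPM in the untreated libraries, 2.94, 2.43 and 3.14 with empty MN and 2.77, 2.82 and 3.07 with loaded MN. The device libraries overlapped each other and lay below the untreated ones. Serpinb9 (33187233 to 33201940) fell 1.54-fold with empty and 1.51-fold with loaded MN (edgeR adjusted p = 6.22e-06 and 1.74e-05), with a log2 fold change of 0.03 between the devices (SE 0.10, edgeR adjusted p = 0.869). Serpinb9b stood at 1.11, 1.05 and 1.14 CPM, then 0.475, 0.757 and 0.529 with empty MN and 0.671, 0.636 and 0.522 with loaded MN, and fell 1.86-fold and 1.80-fold. Serpinb6b, which blocks granzyme A, stood at 2.24, 2.62 and 2.24 CPM, then 1.53, 1.72 and 1.53 with empty MN and 1.42, 1.44 and 1.35 with loaded MN. It fell 1.48-fold and 1.69-fold, and its 1.14-fold difference between the devices did not pass the test (edgeR adjusted p = 0.244).

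With the Serpinb9 copies summed, the log2 fold change was -0.66 with empty MN, -0.62 with loaded MN and 0.04 between the devices (edgeR adjusted p = 0.750). This sum was not called between the devices, whereas the Serpinb1, Serpinb3 and Serpinb6 sums were lower with loaded than with empty MN. The other Serpinb9 copies were near the detection limit. The highest count in any library was 6 for Serpinb9c, 4 for Serpinb9d and Serpinb9e and 2 for Serpinb9f, Serpinb9g and Serpinb9h, so a difference in these genes was not detectable at this depth.

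**Figure D3:**
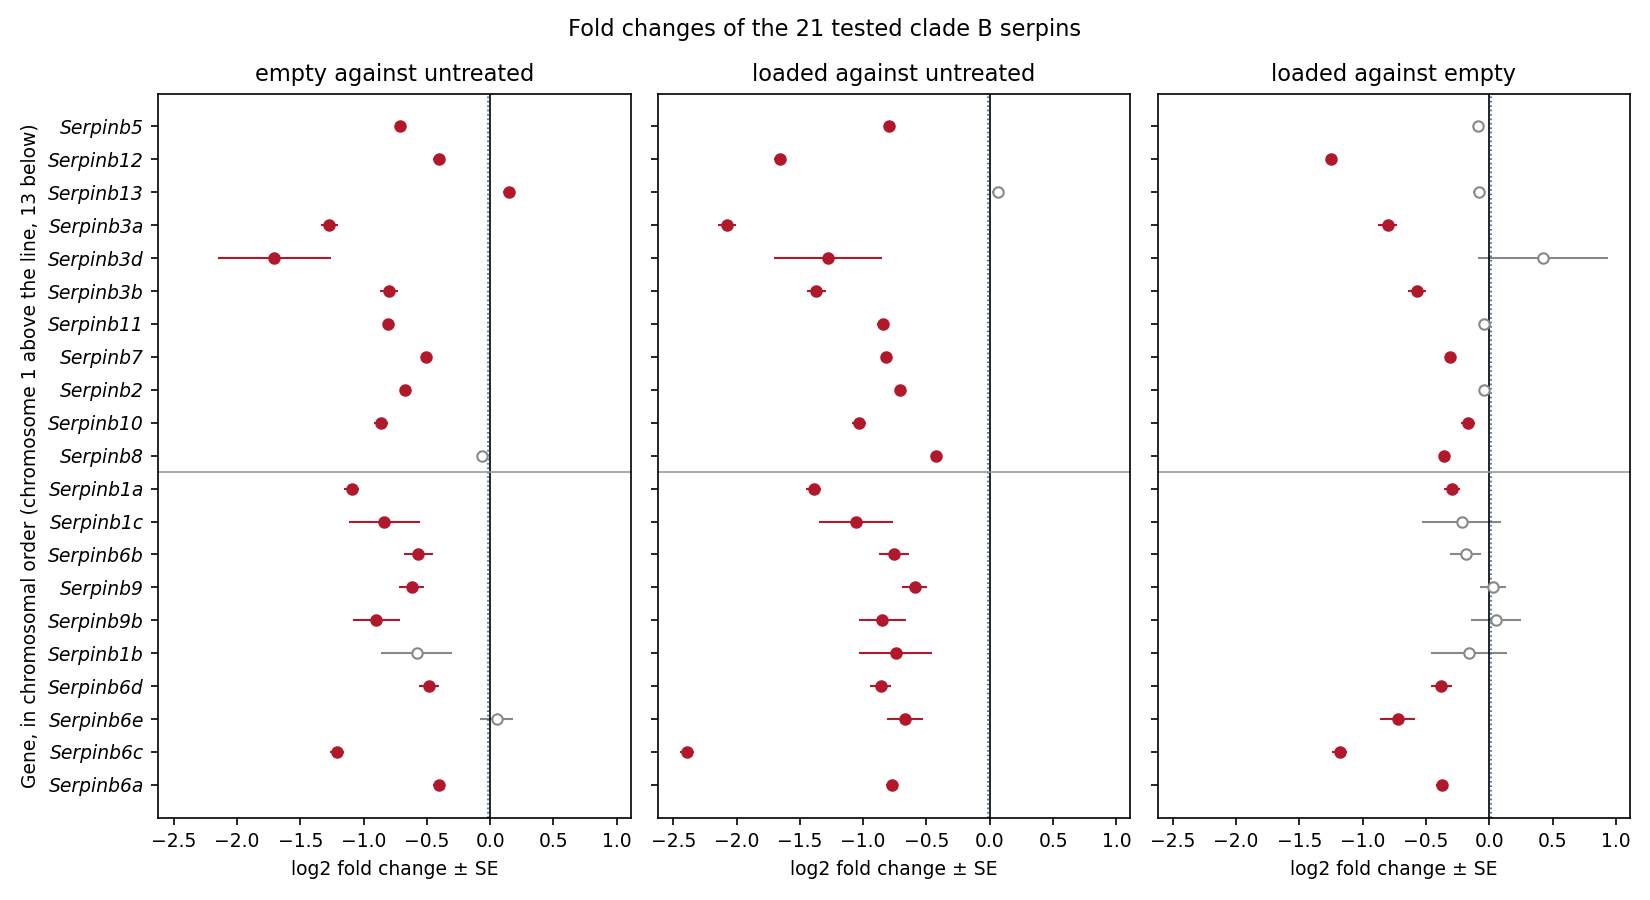
Log2 fold change with its standard error for the 21 tested members in 3 comparisons, in chromosomal order, with filled red points where edgeR's adjusted p was under 0.05 and open grey points otherwise. The solid line marks 0, the dotted line the median of all tested genes, and the horizontal line parts the chromosome 1 members from those of chromosome 13. Against untreated lesions nearly all points lie to the left, from 0.07 down to -2.39 with loaded MN, while between the devices Serpinb12 (-1.25) and Serpinb6c (-1.18) lie farthest left.

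Levels can be set side by side between genes only per length. Per kilobase of the longest spliced transcript in GENCODE M21, held for 27 of the 28 members, Serpinb5 stood highest in untreated lesions, at 386 ± 29.0 CPM per kb (SD, n = 3 libraries). Serpinb6a (134 ± 8.22), Serpinb2 (129 ± 6.62) and Serpinb12 (125 ± 9.71) followed, and their values lay within each other's spread. Serpinb3b stood at 114 ± 8.41, Serpinb7 at 102 ± 6.74 and Serpinb8 at 49.6 ± 2.005 CPM per kb in untreated lesions. With loaded MN the order below Serpinb5 (222 ± 5.11) was Serpinb2 (78.6 ± 3.20) and Serpinb6a (78.1 ± 4.29), level with each other, then Serpinb7 (57.4 ± 2.74), Serpinb3b (44.2 ± 4.07), Serpinb12 (39.5 ± 1.17) and Serpinb8 (36.9 ± 1.04). Serpinb12 thus stood beside Serpinb2 in untreated lesions and at about the level of Serpinb3b with loaded MN. Introns were counted too, so these values are a rough scale.

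The genes next to the clusters are given for comparison, and no test set them against the members. Serpins, predicted genes and pseudogenes, as judged by their symbols, were passed over as neighbours. Log2 fold changes with loaded MN against untreated lesions were -0.15 for Vps4b, -0.12 for Kdsr and 0.16 for Bcl2. These were the nearest 3 such tested genes before the chromosome 1 cluster, with Vps4b 64.4 kb away. Beyond its other end the nearest such tested gene, Cdh7, lay 2372 kb away. There Dsel (-0.25) fell while Cdh7 (-0.40) and Cdh19 (0.00) were not called. Around the chromosome 13 cluster the values were 0.04 for Wrnip1, 0.19 for Mylk4, 0.02 for Bphl, -0.15 for Tubb2a and -0.09 for Tubb2b, of which Mylk4 and Tubb2a were called. An unnamed gene on that side, ENSMUSG00000118652, was at 0.02 and not called. Nqo2 (-0.17) and Ripk1 (-0.29), which overlap the end of the chromosome 13 cluster, fell.

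Of 15 proteases that clade B serpins are known to inhibit or that act beside them in skin, 14 were tested. With loaded MN 8 were lower and 1 higher than in untreated lesions (median -0.34), against 23.3% and 19.0% of all tested genes. With empty MN 8 were lower and 2 higher (-0.21), against 28.1% and 20.2%. Between the devices 7 were lower and 2 higher with loaded MN (-0.20), against 18.5% and 22.9%. Ctss, the gene of cathepsin S of antigen-presenting cells, fell from 86.7 ± 3.20 CPM to 52.2 ± 0.314 with empty and 45.4 ± 1.80 with loaded MN (SD, n = 3 libraries each). Ctsl, the gene of the cathepsin L that Serpinb13 and the Serpinb3 proteins inhibit, fell from 855 ± 31.5 CPM to 553 ± 29.2 and 536 ± 9.55. Klk8, the gene of an epidermal kallikrein, stood at 259 ± 14.0, 237 ± 12.3 and 126 ± 4.85 CPM, so that most of its fall came with loaded MN (log2 fold change -0.92 between the devices, SE 0.042, edgeR adjusted p = 5.78e-14). Ctsk, the gene of cathepsin K, stood at 57.3 ± 0.728, 48.1 ± 1.45 and 32.2 ± 0.821 CPM, a fall in each comparison.

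For granzyme B and urokinase, the targets of Serpinb9 and Serpinb2, the values were as follows. The untreated libraries held 45, 42 and 49 Gzmb counts, against 14, 9 and 17 with empty MN and 15, 12 and 14 with loaded MN. Gzmb and Serpinb9 were both lower with either device, and neither was called between the devices. Plau, the urokinase gene, was at 48.4 ± 0.537 CPM in untreated lesions, 51.5 ± 0.459 with empty and 39.9 ± 1.72 with loaded MN. Plau thus rose by 0.09 on the log2 scale with empty MN (edgeR adjusted p = 0.0343), where Serpinb2 fell. Ctsg, the gene of cathepsin G, was at 0.216 ± 0.0773, 0.222 ± 0.0914 and 0.152 ± 0.0362 CPM and was called in no comparison, and Elane, the neutrophil elastase gene, did not pass the filter. Prtn3, the gene of proteinase 3, which Serpinb1a also inhibits, was at 0.847 ± 0.0366, 0.574 ± 0.067 and 1.02 ± 0.0524 CPM. It fell with empty MN (log2 fold change -0.56, edgeR adjusted p = 0.00837) and was higher with loaded than with empty MN (0.82, 1.64e-04), where Serpinb1a was lower. Furin, the target of Serpinb8, was at 114 ± 5.44, 145 ± 1.42 and 121 ± 2.81 CPM. It rose with empty MN (0.35, edgeR adjusted p = 8.29e-10) and slightly with loaded MN (0.09, 0.0457).

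Serpins of other clades, which are mostly secreted, were counted in the same way. Of 27 tested among 36, 13 were lower and 1 higher with loaded MN against untreated lesions (median -0.38), 11 lower and 4 higher with empty MN (-0.21), and 10 lower and 5 higher between the devices (-0.23). Over all tested genes the shares lower and higher were 23.3% and 19.0%, 28.1% and 20.2%, and 18.5% and 22.9% in the same order. The 2 groups of serpins were not tested against each other. Serpina3n, an acute phase inhibitor of granzyme B and cathepsin G, fell from 21.03 ± 0.582 CPM to 7.44 ± 0.229 with empty and 8.72 ± 0.600 with loaded MN. Serpina12, or vaspin, an inhibitor of kallikrein 7, stood at 336 ± 22.8, 268 ± 6.25 and 158 ± 4.42 CPM, a fall in each comparison. Its group means ran in the same order as those of 16 of the 21 tested clade B members. Only 11 of those 21 were called lower between the devices. Serpina3h was highest with empty MN, at 53.1 ± 0.589 CPM against 40.4 ± 0.732 and 37.9 ± 1.57. Serping1, the gene of the complement C1 inhibitor, stood at 86.0 ± 1.37, 82.8 ± 5.37 and 59.6 ± 1.88 CPM, with no call for empty MN.

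Of 13 cytokines and receptors known to induce clade B serpins in epidermis, 11 were tested (Il17a and Il22 had too few counts). With loaded MN 5 were lower and 1 higher than in untreated lesions, against 23.3% and 19.0% of all tested genes. With empty MN 3 were lower and 4 higher, against 28.1% and 20.2%, so the lower count was near that share. Between the devices 6 were lower and 0 higher, against 18.5% and 22.9%. Il13ra1, a receptor chain for the type 2 cytokines that induce Serpinb3 genes, stood at 156 ± 7.97 CPM in untreated lesions, 134 ± 1.98 with empty and 97.5 ± 5.62 with loaded MN. Il13ra1 was called lower in each comparison. Ifng, with 1 to 23 counts per library, was also called lower with empty (-2.01, edgeR adjusted p = 9.55e-04) and loaded MN (-1.78, 0.00304). No device library held more than 9 Ifng counts, below the filter minimum of 10. Ifng was thus tested only because its untreated libraries were high, and its falls support nothing further. The 5 lower genes with loaded MN and the 3 with empty MN include Ifng. Ifng was not called between the devices (0.23, edgeR adjusted p = 0.795), where both groups lay below that minimum. Further genes of the list differed from Il13ra1. Il17rc (0.31), Il10rb (0.21), Il22ra1 (0.34) and Il17ra (0.22) rose on the log2 scale with empty MN. Il4ra, the partner chain of Il13ra1, was not called with empty MN (-0.02, edgeR adjusted p = 0.741), though it fell with loaded MN (-0.19, 4.56e-05). Of the type 2 cytokines themselves, Il4, with 11 to 26 counts per library, was called in no comparison. Il13 was counted 27, 23 and 9 times in untreated libraries, 7, 6 and 10 with empty MN and 12, 12 and 11 with loaded MN. It was called lower with empty MN (-1.52, edgeR adjusted p = 0.00419) but not with loaded MN (-0.86, 0.0876). For both cytokines a call or the lack of one rested on few counts.

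Markers of the cells that make clade B serpins also moved with the groups. Against untreated lesions, 23.3% of all tested genes were called lower and 19.0% higher with loaded MN. With empty MN these shares were 28.1% and 20.2%. Summed CPM of the 12 chromosome 1 members was 66.7% of the untreated mean with empty MN and 55.5% with loaded MN, and that of the 16 chromosome 13 members 69.6% and 53.0%. Over 6 basal keratinocyte markers the sum was 75.4% and 70.7%, led by Krt14 (7223 ± 452, 4064 ± 144 and 3581 ± 118 CPM), and 3 fell and 0 rose with loaded MN. With empty MN 2 of the 6 basal markers fell (Krt14 and Krt5) and 2 rose (Col17a1 by 0.23 and Itgb4 by 0.21 on the log2 scale), with a median of -0.04, so the lower sum rested mainly on Krt14. Over 8 suprabasal keratinocyte markers the sum was 132% with empty MN, 5 genes rising and 3 falling, and 77.6% with loaded MN, 6 falling and 0 rising. The suprabasal sum, most of it Krt10 and Krt1, was thus higher with empty MN where the summed clade B serpins were lower. The 3 suprabasal markers that fell with empty MN were Ivl (-0.36 on the log2 scale), Dsc1 (-0.24) and Dsg1a (-0.10). Between the devices, where the summed clade B serpins were also lower with loaded MN, 8 of the 8 suprabasal markers were lower (median -0.31). Of the 6 basal markers 3 were lower and 0 higher in that comparison. Of all tested genes, 18.5% were called lower and 22.9% higher there. Krt1, of the differentiating layers, stood at 9397 ± 149 CPM in untreated lesions, 12578 ± 423 with empty and 5940.3 ± 246 with loaded MN. Lor, the loricrin gene of the cornified envelope, stood at 1611 ± 81.9, 2957 ± 162 and 1458 ± 37.4 CPM.

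Leukocyte markers moved too. The counts of markers below stand against the same shares, 23.3% lower and 19.0% higher with loaded MN and 28.1% and 20.2% with empty MN. Over 8 neutrophil markers the sum ran from 89.6 to 111 CPM in untreated, 86.1 to 89.4 in empty and 39.8 to 45.7 in loaded libraries, with 4 of 8 falling with loaded MN. S100a8, S100a9 and Cxcr2, of which the S100 genes can also be made by keratinocytes, held 96.3% to 97.6% of the group means of that sum. The more specific Ly6g, Retnlg and Mmp8, with at most 19 counts in any library, were called in no comparison, and Mpo was not called against untreated lesions. Csf3r was called lower in each comparison. Its log2 fold changes were -1.10 with loaded MN, -0.68 with empty MN and -0.42 between the devices. Over 7 macrophage markers the sum ran from 236 to 250.1, 209.8 to 215 and 154 to 168 CPM in the same order. With loaded MN 7 of 7 fell, and with empty MN 6 of 7. Over 8 cytotoxic lymphocyte markers the sum ran from 8.35 to 8.64, 6.41 to 6.90 and 6.30 to 7.17 CPM, with 4 of 8 falling with loaded MN. Hair follicle markers went the other way with loaded MN, 6 of 6 rising, and 6 of 6 fell with empty MN. Fibroblast markers fell in 6 of 6 with either device. Mast cell markers summed to 49.4 to 51.9 CPM in untreated, 42.2 to 44.9 in empty and 54.2 to 55.03 in loaded libraries. With loaded MN 3 of those 6 fell, and Kit, which other skin cells also make, rose. Skeletal muscle markers summed to 6781 to 6994, 8525 to 9965 and 6226 to 6663 CPM, with 5 of 6 rising and 1 falling with empty MN, and 4 falling and 1 rising with loaded MN. Of all these marker lists, 0 genes were without counts in every library, and the part of these cells in the serpin values was not tested.

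**Figure D4:**
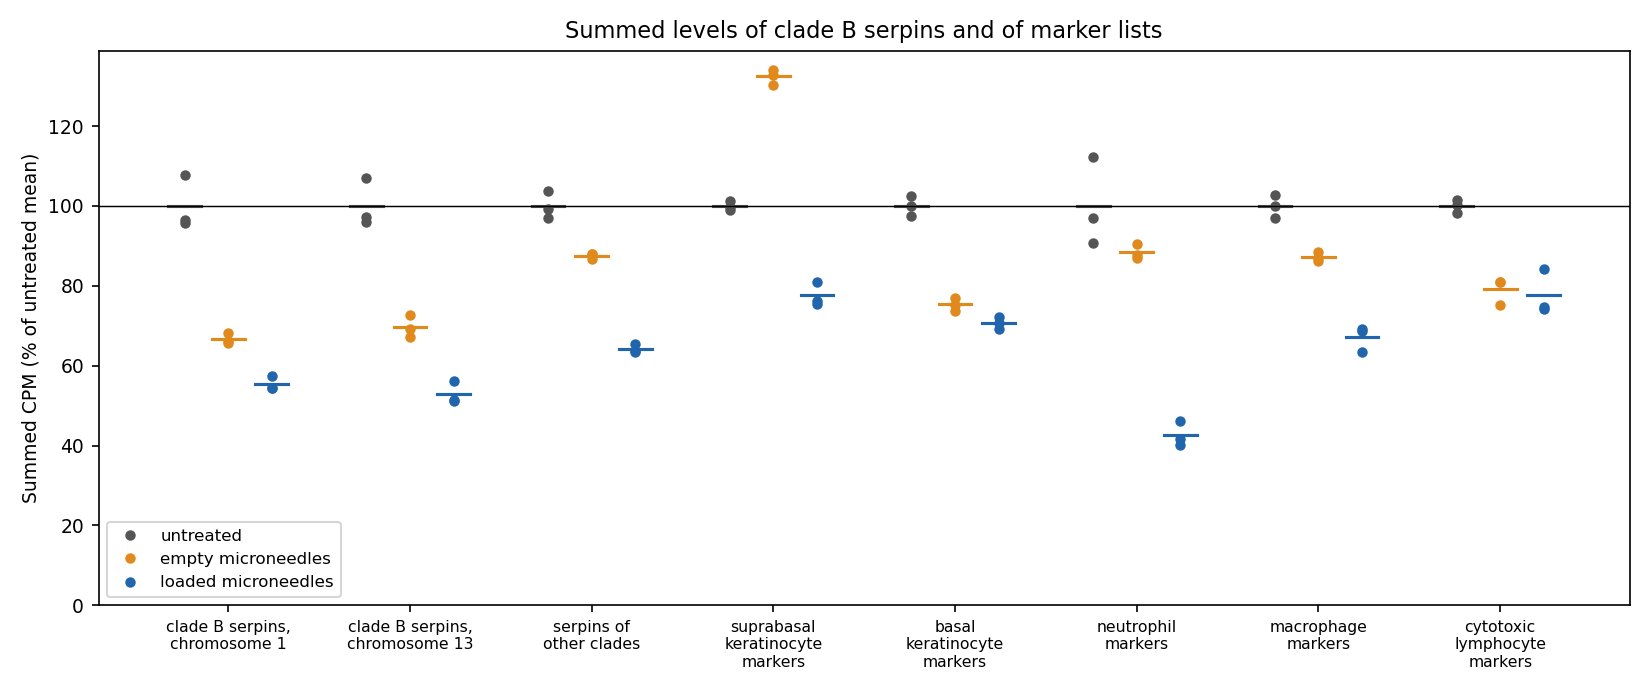
Summed CPM of each list in each library, as a percentage of its mean over the untreated libraries, with 1 point per library, a short line at the mean of 3 and a line across at 100. Both clade B clusters lie near 67% to 70% with empty and 53% to 55% with loaded MN, suprabasal keratinocyte markers lie above 130% with empty MN, and neutrophil markers, nearly all S100a8, S100a9 and Cxcr2, lie at 42.7% with loaded MN.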

How the data were processed

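Polyadenylated RNA of mouse skin was measured in 9 libraries, 3 per group. The submitters' processing notes name HISAT2, featureCounts and mm39, and the authors deposited raw counts per gene, not normalized. Tool versions, annotation and strand setting were not given in the sources used here. The length given for a gene equalled its span for 99.9% of genes, so introns were counted. Groups came from the treatment labels.

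Genes were kept with filterByExpr (minimum count 10, minimum total 15), scaled with TMM and, with all 9 libraries in 1 model, put through the robust quasi-likelihood test of edgeR 4.0.16 (R 4.3.3). The common biological coefficient of variation came to 0.0390. P-values were adjusted by Benjamini and Hochberg's method across every tested gene, and a gene was called below 0.05. Standard errors were taken from the F statistic. CPM are means ± SD of 3 libraries after TMM scaling. The steps were tested on simulated counts.

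The members and the gene lists were chosen with earlier results of these data known. All members were named. Of each list, the genes with the smallest p in a 3-group test were named. These were up to 4 of the proteases and of the other serpins and up to 3 of the rest. Gzmb, Plau, Ctsg, Elane and the nearest 3 tested neighbours on each side of each cluster were named too. Serpins, predicted genes and pseudogenes, as judged by their symbols, were passed over as neighbours. A neighbouring gene is not reported here. Prtn3, Furin and the further cytokine and marker genes were named after their values were seen, and the counts without Serpinb3d were added then too. Sequences came from GENCODE M21 and RefSeq tables of GRCm38, whose coordinates differ from mm39. Reading frames, reactive loops, copies of 50 bases and motifs were found by exact search. Alternatives were other scalings, filters and tests (DESeq2 1.42.0, limma 3.58.1 voom), a replicate block, summed copies and leaving out each library. Libraries of a group differed by more than counting noise, so none was counted as a duplicate.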

Additional observations from a re-analysis of the deposited data

How the results depend on the processing

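Of 620 member values under alternatives other than leaving out a library, 611 kept their call or lack of one. A further 3 lost a call, 6 gained one, and 0 values called in either fit reversed. Values without a call could change sign and still be counted as kept. Serpinb8 with empty MN did so, at -0.07 in the main fit and 0.004 under upper-quartile scaling. Of 567 values without 1 library, 548 kept their call or lack of one in the same sense, 12 lost a call, 7 gained one and 0 reversed. With the close copies summed into families, 12 features were tested, of which 11 were called with loaded MN against untreated lesions, 11 with empty MN against untreated lesions and 7 between the devices. Without 1 library, the number of called members ran from 18 to 20, from 17 to 19 and from 10 to 14 in the same order. Upper-quartile scaling called 14 members lower between the devices, adding Serpinb5 (-0.14), Serpinb13 (-0.14) and Serpinb2 (-0.09). Scaling by library size alone shifted the median of all genes by 0.13 and 0.10 in the comparisons of loaded and empty MN with untreated lesions, and moved the share of higher among all calls from 44.9% to 68.1% and from 41.7% to 57.9%, with 19 and 17 members still called lower. Under upper-quartile scaling that share was 53.0% with empty MN and went from 55.3% to 44.4% between the devices. Serpinb1b lost its call with loaded MN by library size (-0.61, adjusted p = 0.0781), the DESeq2 Wald test (-0.73, 0.0634) and limma-voom (-0.68, 0.0860), and over all its alternatives its adjusted p ran from 0.00439 to 0.217. With the replicate block 20, 18 and 11 members were called, as without it. Numbers that samples of different groups share did not pair them, with correlations of their deviations from -0.134 to 0.104 over 9 pairs and 7 of 18 best matches between groups falling on the same number. Low counts limited Serpinb1b, Serpinb1c and Serpinb3d and the 7 members that were not tested. Serpinb3c lies within Serpinb3b, and most of the untested Serpinb9 copies share sequence with other genes. The part of depth and of shared reads in those low counts was not tested.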
